A study of Mus musculus with 6 samples.

Results

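Kruppel-like factors are transcription factors with zinc fingers at the carboxyl end that bind GC-rich and CACCC elements in DNA. The 10 genes described here are *Klf2*, *Klf3*, *Klf4*, *Klf5*, *Klf6*, *Klf7*, *Klf9*, *Klf10*, *Klf13* and *Klf15*, chosen as named genes of the family, and they are 10 of the 19938 genes measured. Each was read from 1 probe set that names that gene alone, and no other probe set in the table names any of them.

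The data came from microarrays of the esophageal epithelium of 6 mice aged 3 months on a mixed genetic background, with 1 array per animal. The 3 animals labelled mutant were ED-L2-Cre/Klf4loxp/loxp mice, in which both copies of *Klf4* carry loxP sites and a Cre transgene is driven by ED-L2, a viral promoter active in squamous epithelium. The 3 animals labelled control were Klf4loxp/loxp littermates of matching sex without the Cre transgene, so that the floxed *Klf4* alleles were common to both groups. In each group replicate 1 was male and replicates 2 and 3 were female. The questions were where the family members stand in the signal of the esophageal epithelium, whether *Klf4* itself read lower with the transgene, and whether other members differed with it.

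In stratified squamous epithelium of the mouse, KLF4 is found mainly above the basal layer, where it promotes differentiation and exit from the cell cycle, and KLF5 is found mainly in the proliferating basal layer. Because the members share their DNA-binding domain, they can occupy similar elements and act with or against each other. Several family genes are themselves induced quickly by growth factors, TGF-beta or glucocorticoids.

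The 6 arrays carried the label's tissue. The 12 squamous markers averaged 11.67 to 11.99 on the log2 scale on the arrays labelled mutant and 11.37 to 11.48 on those labelled control, where the median over all probe sets lay between 5.01 and 5.13. Their mean was 0.36 higher with the transgene, but their median difference was 0.037, and the stress keratin gene *Krt6a* alone differed by 3.30. Cells from beneath the epithelium contributed as well. The 12 fibroblast markers averaged 7.25 to 7.43 on the arrays labelled mutant and 7.90 to 8.62 on those labelled control, and the 13 muscle markers 6.73 to 8.29 and 7.22 to 9.68. On array mutant 1, 58 genes lay more than 1 log2 unit above all 5 other arrays, and on array control 2 there were 157 such genes, against 3 to 8 on each of the rest. The members' differences without these 2 arrays are also given, with the other alternatives of processing. In bulk tissue, fewer cells of a type and less RNA per cell cannot be told apart. The labels name separate animals but not separate dissections or array runs, and 3 animals per group limit the precision of every value.

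The regions around the transcription starts of the targeted gene and of the 2 members that read lower with the transgene and without overlap between the groups are shown here, because CACCC and GC elements are the letters that the family's own proteins can bind. The sequences are those of RefSeq in build GRCm38.p6, each running 5′ to 3′ on the gene's strand with 250 bases before and 50 after the start. *Klf4* is at chr4:55532426-55532725 (minus strand), *Klf3* at chr5:64803271-64803570 (plus strand) and *Klf9* at chr19:23140976-23141275 (plus strand). Capitals mark matches to the CACCC box on either strand. They also mark the GC box, whose letters are GGGCGG, on either strand, and adjacent matches can run together.
Klf4: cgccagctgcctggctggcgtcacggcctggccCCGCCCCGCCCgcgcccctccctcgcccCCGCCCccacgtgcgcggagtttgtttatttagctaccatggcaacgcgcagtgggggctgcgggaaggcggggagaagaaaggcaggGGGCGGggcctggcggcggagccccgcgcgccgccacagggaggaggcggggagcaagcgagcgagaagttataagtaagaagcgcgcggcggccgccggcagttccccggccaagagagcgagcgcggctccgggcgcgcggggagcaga
Klf3: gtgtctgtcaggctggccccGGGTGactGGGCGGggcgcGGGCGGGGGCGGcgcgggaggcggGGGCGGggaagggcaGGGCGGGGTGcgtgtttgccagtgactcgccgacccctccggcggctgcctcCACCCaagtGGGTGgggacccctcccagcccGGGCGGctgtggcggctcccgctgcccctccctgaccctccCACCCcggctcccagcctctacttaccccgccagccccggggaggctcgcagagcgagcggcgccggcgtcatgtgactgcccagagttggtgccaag
Klf9: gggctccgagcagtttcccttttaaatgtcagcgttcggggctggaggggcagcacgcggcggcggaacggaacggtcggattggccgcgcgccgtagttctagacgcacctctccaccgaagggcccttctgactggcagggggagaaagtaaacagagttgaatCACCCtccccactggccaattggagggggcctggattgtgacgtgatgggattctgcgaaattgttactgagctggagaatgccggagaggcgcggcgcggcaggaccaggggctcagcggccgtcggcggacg
The *Klf3* window held 5 matches to the CACCC box over the 2 strands and 6 to the GC box, with 1 overlapping pair. At least 5 CACCC matches occurred in 1.02% of the 32851 promoters in the RefSeq table, while 57.5% held at least 1. The *Klf9* window held 1 CACCC box and 0 GC boxes, and the *Klf4* window 0 CACCC boxes and 4 GC boxes. Of all promoters, 35.7% held at least 1 GC box. The windows are unequal in base composition, with 76.7% G and C for *Klf3*, 74.3% for *Klf4* and 63.3% for *Klf9*, and GC-rich windows hold more such letters. Of the 10 members, 8 had a promoter in the table. *Klf7* held 3 CACCC matches, *Klf2*, *Klf13* and *Klf15* 1 each and *Klf6* 0. A match describes the letters only and does not show that a factor binds there.

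The targeted gene was bright on every array. *Klf4* read 10.28, 10.50 and 10.28 on the arrays labelled mutant, against 9.75, 10.15 and 10.06 on those labelled control (log2 signal, replicates 1 to 3). Every array labelled mutant thus lay above every array labelled control, which is the opposite of a lower signal. The means were 10.35 ± 0.13 and 9.99 ± 0.21 (SD, n = 3 each), a ratio of 1.29 with a 95% interval of 1.04 to 1.60 that is not adjusted for the number of genes. The difference of 0.37 ± 0.13 (SE, log2) did not pass the adjusted threshold of 0.05 (limma adjusted p = 0.314). Neither the excised part of the gene nor the place of this probe set within it is stated in the labels, and probes that lie elsewhere would not register the deletion. The signal of *Klf4* therefore does not check the labels, and every direction given here rests on them. With each array left out in turn, the difference lay between 0.25 (without control 1) and 0.45 (without control 2).

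**Figure D1:**
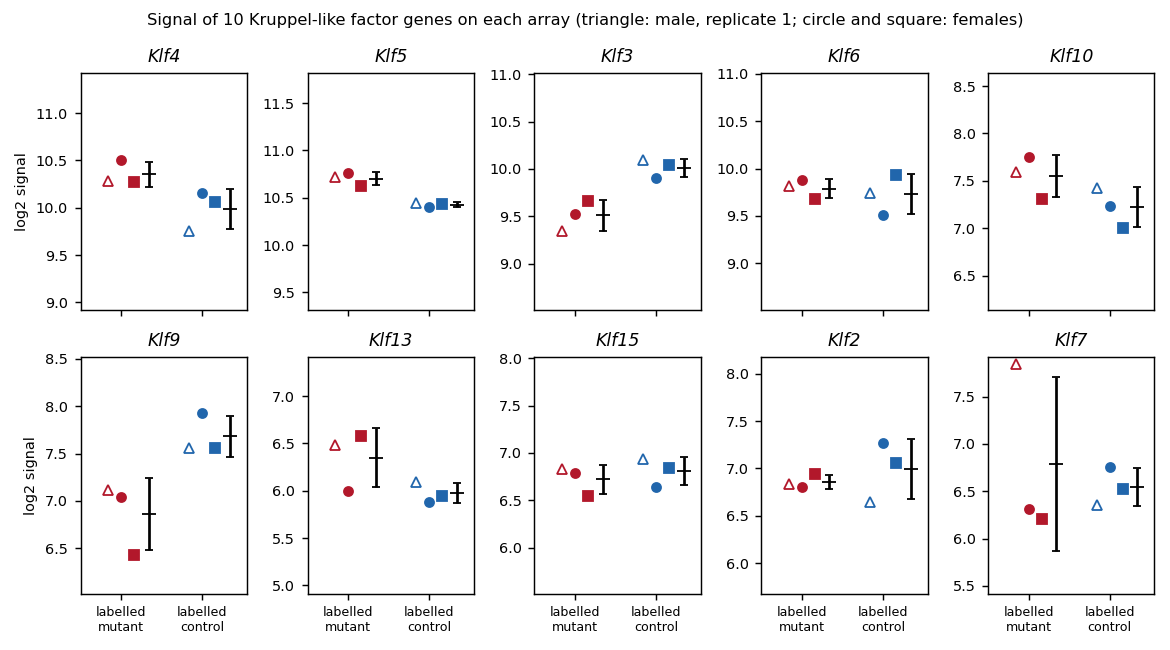
Log2 signal of the 10 Kruppel-like factor genes on each of the 6 arrays, with the arrays labelled mutant in red at the left and those labelled control in blue at the right of each panel. Bars give the mean and SD (n = 3 each), and all panels span the same number of log2 units. *Klf4* and *Klf5* lie higher and *Klf3* and *Klf9* lower on all 3 arrays labelled mutant, and *Klf7* has 1 high array.

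Signals of different probe sets depend on their probes as well as on the amount of transcript, so the positions that follow describe the arrays and not an order of transcript amounts. A group of 4 members lay near the top of the signal range. Among all 19938 genes of an array, *Klf5* stood at the 98.3rd to 98.5th percentile on the arrays labelled mutant and at the 97.8th to 97.9th on those labelled control. *Klf4* stood at the 97.5th to 98.0th and the 95.7th to 97.3rd percentile, *Klf3* at the 93.8th to 95.7th and the 96.6th to 97.0th, and *Klf6* at the 95.7th to 96.3rd and the 95.01st to 96.4th. The ranges of these 4 genes touch or lie within a few percentiles of each other. The other 6 members occupied the middle of the range. On the arrays labelled control, *Klf9* stood at the 77.7th to 82.8th percentile, *Klf10* at the 70.4th to 76.0th and *Klf13* at the 55.2nd to 58.4th, with *Klf2*, *Klf15* and *Klf7* between the 61.6th and the 74.8th. The 10 members all had a mean above the dim limit of 4.72 log2, the 40th percentile of gene means.

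None of the 10 members passed in limma at an adjusted p of 0.05, where 1.04% of all genes did (207 of 19938, 0.366% upward and 0.672% downward with the transgene). At an unadjusted p of 0.05, 4 members were below the threshold, *Klf3*, *Klf4*, *Klf5* and *Klf9*, against 12.4% of all genes. The same 4 had groups that did not overlap, as did 18.1% of all genes. Of them *Klf4* and *Klf5* were higher on the arrays labelled mutant, as were 10.1% of all genes, and *Klf3* and *Klf9* lower, as were 8% of all genes. The median difference of the 10 members was 0.15 on the log2 scale, against 0.022 over all genes, with 6 members higher and 4 lower. Over all genes 11072 were higher and 8866 lower. The median of the members rested on array mutant 1: it was -0.035 without mutant 1, -0.010 in the females alone and -0.020 without mutant 1 and control 2.

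**Figure D2:**
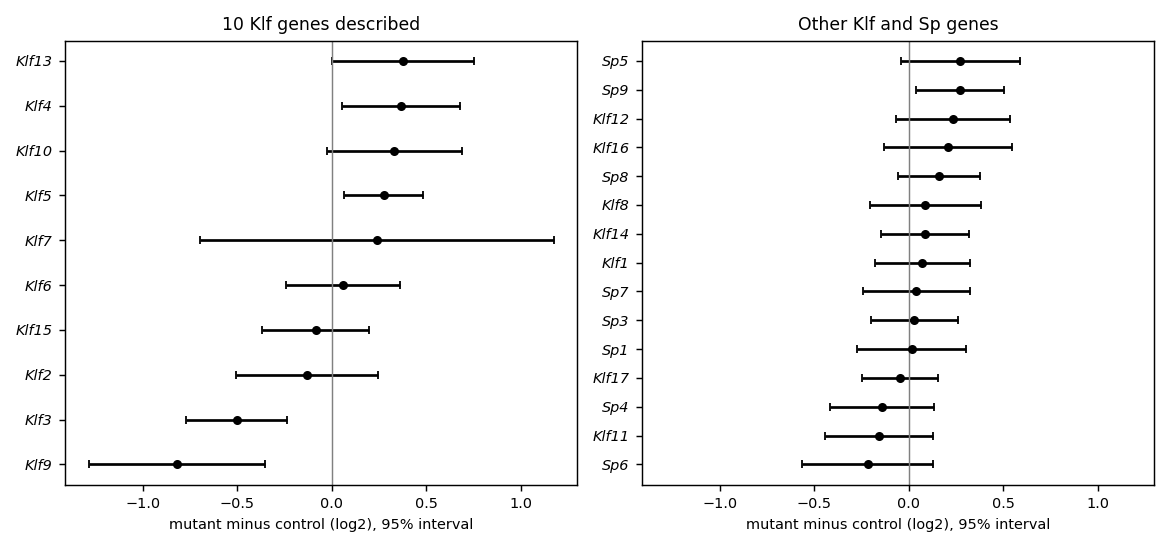
Difference on the arrays labelled mutant minus those labelled control (log2, horizontal axis) with its 95% interval, unadjusted for the number of genes, for the 10 genes described (left) and 15 other Klf and Sp genes (right). The intervals of *Klf13*, *Klf10* and 4 other members on the left include 0, and those of *Klf4*, *Klf5*, *Klf3* and *Klf9* do not. On the right only that of *Sp9* lies wholly on one side of 0.

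The basal-layer factor gene *Klf5* had the smallest SD of the 10 members in both groups. It read 10.72, 10.76 and 10.63 on the arrays labelled mutant, against 10.45, 10.40 and 10.43 on those labelled control. The 3 control values spanned 0.049 log2 units, and the gap between the groups was 0.18. Means were 10.70 ± 0.068 and 10.43 ± 0.025 (SD, n = 3 each). The difference of 0.28 ± 0.089 (SE), or 1.21-fold with an unadjusted 95% interval of 1.05 to 1.40, did not pass (limma adjusted p = 0.249). It stayed between 0.25 and 0.31 with each array left out.

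*Klf3* encodes a factor that represses transcription by recruiting the corepressor CtBP, and it is the member whose promoter held most CACCC matches above. It read 9.34, 9.53 and 9.66 on the arrays labelled mutant, against 10.09, 9.91 and 10.04 on those labelled control. The highest array labelled mutant lay 0.25 below the lowest labelled control. Means were 9.51 ± 0.16 and 10.01 ± 0.093 (SD, n = 3 each), a ratio of 0.706 with an unadjusted 95% interval of 0.587 to 0.850. The difference of -0.50 ± 0.11 (SE, log2) had the smallest p of the 10 members and did not pass (limma adjusted p = 0.111). It kept its sign under all 17 alternatives of processing, between -0.58 and -0.38, with adjusted p-values of 0.0509 to 0.367. Several of these could not move the difference, only its error and p-value. They were dropping dim genes, the choice of probe set, the sex and replicate terms, the intensity trend and no moderation. Since the groups do not overlap, leaving arrays out could not change the sign either. The corepressor genes *Ctbp1* and *Ctbp2* were on the list of 18 genes for cofactors, ubiquitin ligases and upstream kinases of the family. That list had 0 genes past the threshold in limma, 3 with an unadjusted p under 0.05 and a median difference of -0.027, and -0.058 without control 1 and 0.0051 without control 3. Its smallest p-values belonged to *Btrc* (-0.34 ± 0.11, SE), which encodes a ubiquitin ligase subunit, and *Kat2b* (0.50 ± 0.17), which encodes a histone acetyltransferase, with adjusted p = 0.244 and 0.282 in limma.

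*Klf6*, a broadly expressed member that responds early to injury and growth factors, gave a difference smaller than its error. It read 9.81, 9.88 and 9.68 on the arrays labelled mutant, against 9.74, 9.51 and 9.93 on those labelled control, and the groups overlapped. The difference was 0.059 ± 0.13 (SE, log2; limma adjusted p = 0.912). Its unadjusted 95% interval of 0.845-fold to 1.28-fold covers changes in either direction. *Klf10*, which encodes a factor first described as induced early by TGF-beta, read 7.59, 7.75 and 7.31 on the arrays labelled mutant, against 7.43, 7.23 and 7.01 on those labelled control. The lowest value labelled mutant lay below the highest labelled control. The difference was 0.33 ± 0.15 (SE, log2; limma adjusted p = 0.451).

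Since *Klf2*, *Klf4*, *Klf6* and *Klf10* can behave as early response genes, other immediate early genes were read beside them. Of 23 such genes 0 passed in limma and 2 had an unadjusted p under 0.05. Set against the controls, 10 were higher and 13 lower, and the median difference was -0.038, which took either sign with 1 array left out (-0.14 without control 2 and 0.084 without control 3). The list's mean signal was 7.33 to 7.46 on the arrays labelled mutant and 7.08 to 7.72 on those labelled control, so the groups overlapped. The smallest p-values were those of *Ier3* (0.89 ± 0.23, SE; limma adjusted p = 0.141), an early gene linked to cell survival, and *Nr4a2* (0.27 ± 0.11; adjusted p = 0.363), which encodes an orphan nuclear receptor.

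*Klf9* gave the widest difference of the members, downward. Its product is induced by glucocorticoids and thyroid hormone, and in human keratinocytes it has been described as restraining proliferation. It read 7.11, 7.04 and 6.42 on the arrays labelled mutant, against 7.56, 7.93 and 7.55 on those labelled control. The groups lay 0.44 log2 units apart, and mutant 3 was the lowest array. Means were 6.86 ± 0.38 and 7.68 ± 0.21 (SD, n = 3 each), a ratio of 0.566 with an unadjusted 95% interval of 0.410 to 0.783. The difference of -0.82 ± 0.20 (SE, log2) did not pass (limma adjusted p = 0.129). Without mutant 3 it was -0.60, and without mutant 1 it was -0.95, with adjusted p-values of 0.173 to 0.316 over the 6 cases with 1 array left out.

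**Figure D3:**
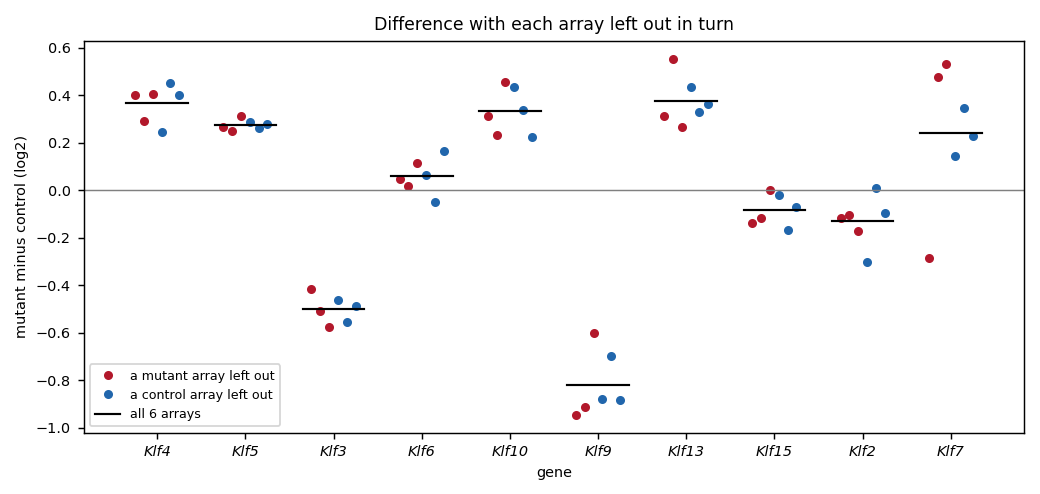
Difference on the arrays labelled mutant minus those labelled control (log2, vertical axis) for each member with all 6 arrays (black line) and with 1 array left out (points, red where an array labelled mutant and blue where one labelled control was left out). *Klf3* and *Klf9* stay below 0 and *Klf4*, *Klf5*, *Klf10* and *Klf13* above it in all 6 cases, and *Klf7* turns negative without mutant 1. For *Klf3*, *Klf4*, *Klf5* and *Klf9*, whose groups do not overlap, leaving out 1 array cannot change the sign.

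Markers of other cell types were read beside *Klf9*. With the transgene, all 12 fibroblast markers were lower, with a median of -1.10, and 3 of them fell past the threshold. These were *Col1a2*, a fibrillar collagen gene (-1.30 ± 0.19, SE; limma adjusted p = 0.0273), *Sparc*, a matrix protein gene (-1.10 ± 0.17; adjusted p = 0.0312), and *Thy1*, a surface protein gene (-0.58 ± 0.10; adjusted p = 0.0479). *Thy1* lost its call in 13 of 17 alternatives, *Sparc* in 7 and *Col1a2* in 6. All 13 muscle markers had a lower group mean too. Their median difference was -0.79, which was -0.31 without control 2 and -1.13 without control 1 or mutant 2. None passed in limma and 6 had an unadjusted p under 0.05, led by the smooth muscle genes *Tagln* (-0.89 ± 0.17; adjusted p = 0.0717) and *Cnn1* (-1.09 ± 0.21; adjusted p = 0.0758). The groups did not overlap for 4 of the 13 muscle markers. The skeletal muscle gene *Ckm* varied widely within each group. It read 10.56, 10.01 and 7.0005 on the arrays labelled mutant, against 6.79, 12.05 and 11.09 on those labelled control. *Klf9* and the muscle mean were both lowest on mutant 3 and highest on control 2. On control 1 the muscle mean was 7.22, below 8.24 and 8.29 on mutants 1 and 2. *Klf9* was higher on control 1 than on either of them. The part of fibroblasts and muscle in the *Klf9* signal was not tested. With the mean of the fibroblast markers as a covariate, added after seeing the data, the *Klf9* difference was -0.63 ± 0.51 (SE), and the SE was wider because that mean itself separates the groups.

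KLF9 is also tied to the circadian clock and to glucocorticoids, and genes of both were read beside it. Of 17 clock genes 13 were lower and 4 higher with the transgene, with a median of -0.41, which was -0.18 without control 1, -0.74 without control 2 and -0.24 in the females alone. None passed in limma, and 6 had an unadjusted p under 0.05. *Nr1d1*, which encodes the clock repressor REV-ERB alpha, read 9.86, 9.70 and 9.31 on the arrays labelled mutant, against 10.49, 10.25 and 10.64 on those labelled control (difference -0.84 ± 0.17, SE; limma adjusted p = 0.0788). *Nfil3*, which encodes a repressor of clock output genes, ran the other way (1.42 ± 0.36; adjusted p = 0.139). The mean of the clock list was 7.55, 7.07 and 7.37 on the arrays labelled mutant (replicates 1 to 3). On those labelled control it was 7.95, 7.16 and 7.65. The groups overlapped, unlike those of *Klf9*, but each array labelled mutant lay below the control of the same number. Whether equal numbers pair the animals was not settled. The labels give no hour of dissection.

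**Figure D4:**
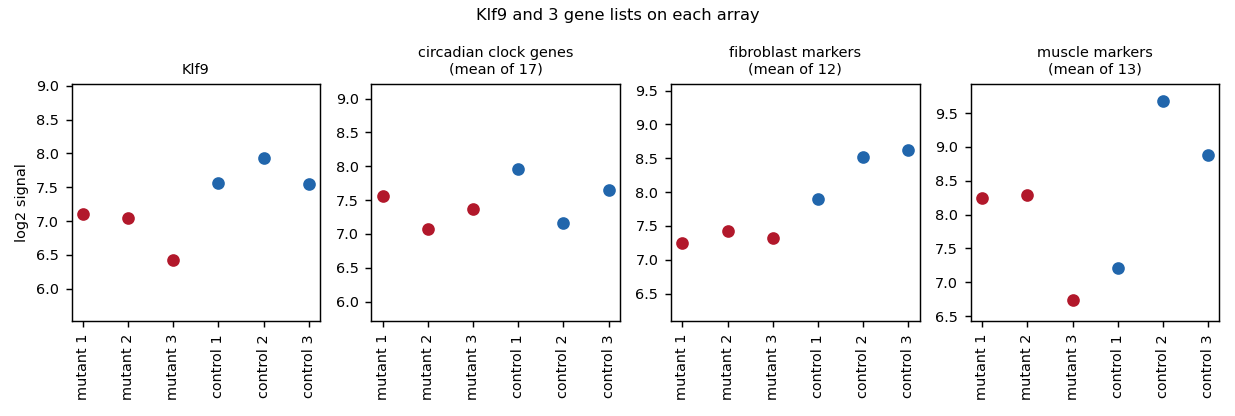
Log2 signal of *Klf9* and mean log2 signal of the circadian clock genes, fibroblast markers and muscle markers on each array, arrays labelled mutant in red and arrays labelled control in blue, on axes of equal span. *Klf9* and the fibroblast markers separate the groups, and the clock and muscle lists overlap.

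Among 12 glucocorticoid response genes, 1 fell and 11 did not pass. The gene that fell was *Nr3c1*, which encodes the glucocorticoid receptor itself. It read 6.91, 6.84 and 6.87 on the arrays labelled mutant, against 7.56, 7.57 and 7.51 on those labelled control, so that the replicates of a group lay close together. The difference was -0.67 ± 0.086 (SE; limma adjusted p = 0.0170) and kept its size, -0.69 to -0.64, under 17 alternatives, of which 8 left it above the threshold with adjusted p-values up to 0.114. Of the 17, dropping dim genes, the sex and replicate terms, the intensity trend and no moderation could not move the size, only its error. The median of the list was -0.044, and -0.13 without control 2 and 0.040 without mutant 3. *Tsc22d3*, *Fkbp5* and *Per1*, known targets of the receptor, gave differences of -0.30 ± 0.25, 0.22 ± 0.17 and 0.18 ± 0.52.

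*Klf13* and *Klf15* complete the set linked to hormones and metabolism. *Klf13*, a close relative of *Klf9* studied mainly in T cells and heart, read 6.48, 5.996 and 6.58 on the arrays labelled mutant, against 6.09, 5.88 and 5.95 on those labelled control. Mutant 2 fell among the control values. The difference was 0.38 ± 0.16 (SE, log2; limma adjusted p = 0.403), upward where that of *Klf9* was downward. *Klf15*, a glucocorticoid-induced regulator of amino acid and lipid use in muscle and liver, read 6.83, 6.79 and 6.55 on the arrays labelled mutant, against 6.94, 6.64 and 6.84 on those labelled control. The groups overlapped widely. The difference was -0.086 ± 0.12 (SE; limma adjusted p = 0.846). It lay between -0.17 without control 2 and -3.17e-05 without mutant 3, and was -0.22 without mutant 1 and control 2, so its direction is not firm.

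*Klf2* is best known in endothelium, where flow induces it, and in resting lymphocytes. It read 6.83, 6.81 and 6.95 on the arrays labelled mutant, against 6.65, 7.27 and 7.06 on those labelled control. The controls spanned 0.62 log2 units, the widest control range of the 10 members, and enclosed all 3 mutant values. The difference was -0.13 ± 0.16 (SE; limma adjusted p = 0.813) and was 0.0078 without control 2. Of 14 endothelial markers 1 fell, *Flt1*, which encodes a VEGF receptor (-1.90 ± 0.19, SE; adjusted p = 0.00982), and the list's median was -0.025, and -0.099 without control 1 and 0.045 without control 2. The signals of *Pecam1* and *Cdh5*, which define endothelium, were among the 13 that did not pass.

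*Klf7*, a member known from developing neurons, was set apart by 1 animal. It read 7.84, 6.32 and 6.21 on the arrays labelled mutant, against 6.36, 6.76 and 6.53 on those labelled control. Mutant 1 lay 1.08 log2 units above every other array, whereas mutants 2 and 3 were the lowest of the 6. The resulting difference was 0.24 ± 0.40 (SE; limma adjusted p = 0.875), and it was -0.29 without mutant 1. Mutant 1 was also the only male among the mutants. The effect in males (1 array against 1) was 1.49 and that in females (2 against 2) was -0.38, and the difference between them, male minus female, was 1.87 ± 0.25 (SE; limma adjusted p = 0.224). The males add nothing to the variance estimate behind this SE, which rests on the spread among the 4 female arrays, moderated over all genes. The lone males are assumed to vary like the females. With 1 male per group, sex and animal cannot be told apart. At an unadjusted p of 0.05, *Klf7* was the 1 member below the threshold, against 5.82% of all genes, and at the adjusted threshold there were 0 members, against 0.0451% of all genes. These counts describe the 6 animals and not the sexes. The same array had the highest mean of the 11 immune markers, 6.54, against 5.59 and 5.69 on the other arrays labelled mutant and 5.48 to 5.95 on those labelled control. Among these markers *S100a8*, of neutrophils and stressed keratinocytes, read 10.01 on mutant 1, and at most 6.08 on the other 5 arrays. This gene carried most of the excess of that mean over control 2, the next highest array at 5.95. *Cd68*, a macrophage lysosome gene, rose (1.11 ± 0.17; adjusted p = 0.0304) and *Lyz2*, a macrophage lysozyme gene, fell (-1.57 ± 0.27; adjusted p = 0.0463), each losing its call in 8 of 17 alternatives. The part of immune cells in the *Klf7* signal was not tested.

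The remaining relatives on the array lay closer to 0 than *Klf4*, *Klf3* and *Klf9*. Of 15 other Klf and Sp genes 0 passed in limma and 1 had an unadjusted p under 0.05. With the transgene 11 were higher and 4 lower, and the median was 0.070 (0.130 without mutant 1 and 0.044 without control 1), with differences between -0.22 and 0.27. In 6 of them both group means lay under the dim limit. *Sp9* (0.27 ± 0.10, SE) and *Sp5* (0.27 ± 0.14) had the smallest p-values, with adjusted p = 0.319 and 0.483 in limma. Both encode Sp factors known from development. *Klf12* and *Klf16* differed by 0.23 ± 0.13 and 0.21 ± 0.15, so no relative showed a difference as wide as that of *Klf9*.

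Genes reported elsewhere as regulated by KLF4 or KLF5 went both ways. The list sets no expected direction for each gene, so its counts and median cannot show whether targets responded. Of 18 measured, 0 passed in limma and 4 had an unadjusted p under 0.05, 9 were higher and 9 lower, and the median was 0.0043, or 0.0012 to 0.051 with 1 array left out. The smallest p-values were those of *Ccne1*, the cyclin E1 gene (1.11 ± 0.21, SE; limma adjusted p = 0.0701), and *Tagln*, a smooth muscle gene that is also among the muscle markers above. Of the 12 squamous markers 0 passed in limma, and their median was 0.037, and -0.014 without control 2. *Krt6a*, a keratin gene of stressed epithelium, had the smallest p and read 10.09, 8.08 and 7.88 on the arrays labelled mutant, against 3.93, 6.54 and 5.68 on those labelled control. The groups did not overlap, and the difference was 3.30 ± 0.76 (SE; limma adjusted p = 0.113). *Sox2*, which encodes a transcription factor of the esophageal lining, followed with 0.51 ± 0.16 (adjusted p = 0.231). The epithelial keratin genes *Krt4* and *Krt13* differed by -0.043 ± 0.098 and 0.027 ± 0.10.

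By Pearson correlation over the 6 arrays, the genes whose signal was most like that of *Klf4* were *Mxd4* (r = 0.959), *Slc9a7* (0.957), *Fam122b* (0.957) and *C1qtnf12* (0.953), out of 3247 genes above the dim limit that varied at least as much. *Mxd4* read 8.11, 8.19 and 7.98 on the arrays labelled mutant, against 7.51, 7.78 and 7.72 on those labelled control, and followed *Klf4* in having its lowest value on control 1 and its highest on mutant 2. All 4 were higher on the arrays labelled mutant, by 0.42 to 0.64, and none passed (limma adjusted p = 0.118 to 0.219). They were picked for likeness to *Klf4*, so this direction follows from the choice and is no separate result. The points share the genotype difference, and the correlations describe these 6 arrays only.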

How the data were processed

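Gene expression was measured on 6 arrays, 3 labelled mutant and 3 labelled control. Per the labels' protocols, cRNA was made from 100 ng of total RNA per animal with a poly(T) primer and carried biotin. The authors deposited log2 values for 28853 probe sets. Partek 6.4 is the only tool in the submitters' processing notes, and how the background was corrected and the arrays normalized is not given in the sources used here, although both affect how strongly dim genes are compressed.

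Names came from the platform's annotation and were brought to those of GRCm38.p6 by Entrez identifier (21698 of 21789 matched). Those naming 1 gene were kept, the brightest per gene, which left 19938 genes. Arrays have no read depth, and their number limits the precision.

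Mutant minus control was fitted by limma 3.58.1 under R 4.3.3 with genotype as the only term (functions lmFit and eBayes, two-sided tests) and Benjamini-Hochberg adjustment over all genes at 0.05. An exact permutation test of 3 against 3 cannot go below 0.1 and was not used. The steps were tested on simulated data. The members and lists were chosen with earlier results of these data known, and lists are described by counts and medians. Named are all members, up to 3 genes past the threshold per list, otherwise the 2 with the smallest p, and the 4 most like *Klf4*. Named outside this rule, after their values were seen, were *Ctbp1*, *Ctbp2*, *Tsc22d3*, *Fkbp5*, *Per1*, *Pecam1*, *Cdh5*, *S100a8*, *Ckm*, *Klf12*, *Klf16*, *Krt4* and *Krt13*. Alternatives covered normalization, dim genes, probe sets, covariates, the variance model and each array left out.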

Additional observations from a re-analysis of the deposited data

How the results depend on the processing

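No member passed the threshold under any of the 17 alternatives or the 2 added after seeing the data. *Klf3*, *Klf4*, *Klf5*, *Klf9*, *Klf10*, *Klf13* and *Klf15* kept their direction in all 17, although *Klf15* came as close to 0 as -3.17e-05 (-0.17 to -3.17e-05 with each array left out). Dropping dim genes, the probe set choice, the sex and replicate terms, the intensity trend and no moderation could not move any member's difference. Leaving arrays out could not change the sign for *Klf3*, *Klf4*, *Klf5* and *Klf9*, whose groups do not overlap. The *Klf2* difference lay between -0.30 and 0.0078 with each array left out, that of *Klf6* between -0.049 and 0.16 and that of *Klf7* between -0.29 and 0.53. *Klf6* was -0.019 with array weights, and *Klf7* was -0.38 in the females alone. Without mutant 1 and control 2 together, *Klf2*, *Klf6* and *Klf7* were 0.021, -0.061 and -0.18, *Klf15* and *Klf9* -0.22 and -0.82, *Klf3* and *Klf5* -0.47 and 0.25, and *Klf4*, *Klf10* and *Klf13* 0.49, 0.32 and 0.26. With the fibroblast mean as a covariate, *Klf2*, *Klf10*, *Klf13*, *Nr4a2* and *Sp5* were 0.55, -0.084, -0.012, -0.093 and -0.014, and *Klf4* was 0.92. The cause of these turns was not tested.

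The count of all genes past the threshold, 207, was 81 with the replicate block, 7 without moderation, 370 with array weights, 83 in the females alone, 43 without mutant 1 and control 2, 7 with the covariate and 44 to 193 with 1 array left out. Over all genes, deviations of same-numbered arrays from their group means correlated at -0.17, 0.090 and -0.10, and those of differently numbered arrays at -0.27 to 0.31. These values do not settle whether the replicate numbers pair the animals. The mean of the clock list was highest on replicate 1 and lowest on replicate 2 in both groups. With the block the *Klf4* difference was 0.37 (limma adjusted p = 0.325). Over all genes, the median difference of 0.022 became 0.013 with quantile normalization and 0.058 with centred medians.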

Other observations

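Mutant 1, the array with the high *Klf7* signal, had 58 genes more than 1 log2 unit above all 5 other arrays. The 3 genes with the widest excess over the 5 other arrays were *Alox15*, an arachidonate lipoxygenase gene, at 11.40 against at most 6.37 elsewhere, *Krt16*, a stress keratin gene, at 8.75 against at most 4.44, and *S100a8* at 10.01 against at most 6.08 (log2). *Rnase2b*, of the eosinophil ribonuclease family, read 11.21 against at most 8.11, and *Ccl11*, which encodes the eosinophil attractant eotaxin, 8.12 against at most 5.76. These genes were chosen after their values were seen. On that array 50 genes exceeded all others by at least as much as *Klf7* did, 1.08 log2 units.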
